A study of Mus musculus with 6 samples.

Results

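Glycolysis turns glucose into pyruvate and lactate, and the genes of this route are studied here together with genes that answer to low oxygen, because hypoxia-inducible factor (HIF) drives many of both. The list names 43 mouse genes by their function, and was drawn up with earlier results of these data known. Of these, 38 had a probe set annotated with their symbol alone and were tested, among 18458 tested genes in all. The 38 lay above the 25th percentile of their array on all 6 arrays. Aldoa, Bnip3l and Ankrd37 sit on probe sets that carry several symbols, and Gpi1 and Eno1 are not paired with a probe set in the annotation used, so these 5 were not analysed here. By role, 27 of the 43 are steps of glycolysis and its transport (24 tested), 5 belong to oxygen sensing (all tested) and 11 are other hypoxia targets (9 tested).

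The arrays, Mouse Gene 2.0 ST, read RNA of inflammatory monocytes sorted as CD11b-positive, CD11c-negative and Ly6C-high from spleen (n = 3 arrays) or tumor (n = 3 arrays). Every mouse had been given Th9 cells, a kind of helper T cell, 10 days before, and no group without such cells is compared here. Neither the kind of tumor nor the mouse strain is stated in the labels, and nothing says whether the arrays of a group came from separate mice. P-values therefore measure only the spread between these arrays, which may be technical, and their number limits the precision.

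Each probe set yields 1 intensity. Levels are log2(intensity + 1), and a change is the tumor mean minus the spleen mean on that scale, given with its standard error (SE). Because probe sets differ in their affinity, levels are compared between arrays and never between genes. A gene is called at an adjusted p under 0.05 in limma, a linear model fitted over all tested genes with Benjamini-Hochberg adjustment. In RNA of bulk cells, fewer cells of a type and less RNA per cell cannot be told apart.

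As background, HIF is a pair of an oxygen-regulated alpha subunit (HIF-1alpha from Hif1a, HIF-2alpha from Epas1) and a stable partner, Arnt. With oxygen present, prolyl hydroxylases of the Egln family mark the alpha subunit, and the Vhl protein sends it to degradation. Without oxygen it builds up and binds short promoter motifs of glucose transporters, glycolytic enzymes and genes of survival and matrix processing. In macrophages, inflammatory signals also raise Hif1a transcription and glycolysis when oxygen is plentiful.

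Of the 38 tested genes, 8 were called higher in tumor (21.1%, against 5.73% of all tested genes) and 4 lower (10.5%, against 4.85%). The rises, in order of size, were those of Hif1a, Slc2a6, Ndrg1, Pdk3, Pfkp, Hilpda, P4ha1 and Hk3, between 1.66-fold and 2.34-fold. The falls were those of Epas1, Eno3, Slc2a3 and Pfkfb4, between 1.57-fold and 2.70-fold. The 26 others were not called, and the median change was 0.03 over the 38 members and -0.05 over all tested genes. The 3 tumor arrays lay above the 3 spleen arrays for 10 members (9.81% of all tested genes) and below them for 8 (15.5%).

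Glycolytic steps and other hypoxia targets are set side by side as a description, since a list is not tested here. Of 24 glycolytic steps, 4 rose (16.7%) and 3 fell (12.5%), where 5.73% and 4.85% of all tested genes did. Their median change was 0.11, with a range from -0.95 to 1.22. That median was 0.00 without tumor 3, 0.01 without spleen 1, 0.02 without spleen 2 and 0.19 without spleen 3, so it has no settled direction. Of 9 other hypoxia targets, 3 rose (33.3%) and 0 fell. At an unadjusted limma p under 0.05, where 2269 of all 18458 tested genes fell, 0 of these targets did. Their median was 0.41 (0.28 to 0.57 with 1 array left out), with a range from -0.41 to 1.18. Falls among the hypoxia targets were called in 1 case, Mif, when the replicate number was a block in limma. That block called 29.0% of all tested genes, and moved the counts over the members to 13 higher (11.7% of all tested genes) and 8 lower (17.3%), and the 12 calls above were among them. Without spleen 1, spleen 2 or tumor 2 the members called higher numbered 4, 4 and 5, and without spleen 1 or tumor 1 those called lower numbered 2 and 1. Calls over all tested genes fell too, from 1952 to 1147 without spleen 1 and 1031 without spleen 2. They numbered 1011 without tumor 1 and 1376 without tumor 2. Hif1a, Slc2a6, Ndrg1, Pdk3 and Eno3 were called with each array left out in turn.

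**Figure D1:**
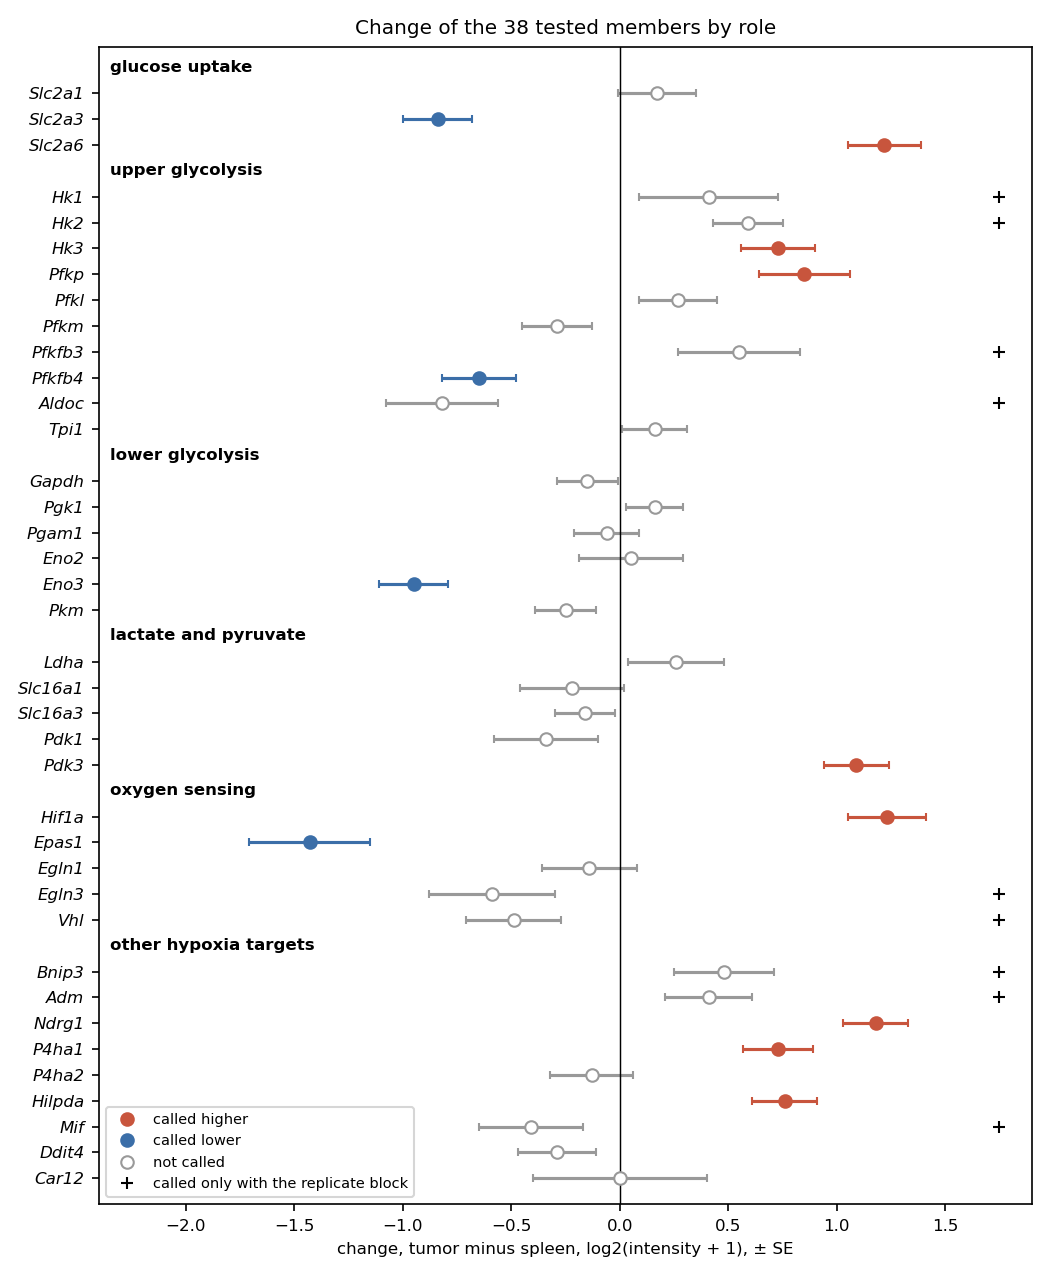
Change of each tested member (x axis, tumor minus spleen on the log2(intensity + 1) scale, ± SE, 3 arrays per group), in rows by role. Filled points are called (8 higher, 4 lower), open points are not, and a plus marks the 9 genes called only with the replicate number as a block.

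Among the genes of oxygen sensing, the alpha subunits of HIF moved in opposite directions. Hif1a (probe set 17276328, Entrez gene 15251) read 8.28, 8.29 and 8.60 on spleen arrays 1 to 3 and 9.65, 9.33 and 9.87 on tumor arrays 1 to 3. The groups do not overlap, and the rise was 1.23 ± 0.18 (2.34-fold, limma adjusted p = 0.00388). Its other probe set, dimmer at 4.93 in spleen and 5.44 in tumor, had a change of 0.51, and with the mean of both sets Hif1a stood at 0.87 and was not called (limma adjusted p = 0.109). Epas1 (probe set 17340197, Entrez gene 13819) read 7.33, 7.45 and 7.99 in spleen and 5.85, 5.89 and 6.73 in tumor. It fell by 1.43 ± 0.28 (2.70-fold, limma adjusted p = 0.0128), with array 3 the highest in each group. Epas1 lost its call without tumor 1 (limma adjusted p = 0.0681).

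Taken within each array, the change of Hif1a exceeded that of Epas1 by 2.66 ± 0.22, at 2.73 among the arrays numbered 1 and 2 and 2.53 in the pair numbered 3. This was the widest gap of 16 pairs of related members that could be compared. In 12 of the 16 pairs the groups did not overlap, and each of these had an exact two-sided permutation p = 0.1, the smallest that 3 against 3 arrays allow (p = 0.133 adjusted over the 16 pairs), so no pair could pass the threshold. How often pairs of other genes separate in this way was not computed. Several of the 16 pairs share a gene, so their count is only a description.

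Among the genes that mark HIF and send it to degradation, none of the 3 members was called. All 3 had changes below 0, with overlapping groups. Egln1, the main oxygen-sensing hydroxylase, stood at -0.14 ± 0.22 (limma adjusted p = 0.859), with overlapping groups and a value of 0.05 without spleen 3. Egln3, a hydroxylase that is itself a HIF target, read 9.41, 9.39 and 10.18 in spleen and 8.95, 8.66 and 9.61 in tumor. Its change of -0.59 ± 0.29 (limma adjusted p = 0.317, or adjusted p = 0.00353 with the replicate block) is smaller than the step from arrays 1 and 2 to array 3 within each group, 0.78 in spleen and 0.80 in tumor. Vhl, the substrate receptor of the ubiquitin ligase, stood at -0.49 ± 0.22 (limma adjusted p = 0.232, or adjusted p = 0.00829 with the replicate block). Other subunits of that ligase, named after their values were seen, lay on both sides of 0. The adaptor Elob stood at -0.15 ± 0.15 with overlapping groups (limma adjusted p = 0.733). The scaffold Cul2 stood at 0.86 ± 0.24 with groups that do not overlap (limma adjusted p = 0.0553, or adjusted p = 0.000593 with the block), and the adaptor Eloc at 0.63 ± 0.29 with overlapping groups (limma adjusted p = 0.264, or adjusted p = 0.0239 with the block).

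HIF binds a short core motif, read here as ACGTG or GCGTG on either strand, and the promoters of some members are shown with these letters. RefSeq windows on GRCm38.p6 were found for 39 of the 43 members, and the 250 bases before the gene start were searched. No window was found for Bnip3l or for the called members Epas1, Ndrg1 and Slc2a3, so their promoters were not read. In this stretch ACGTG lay at 22 of 39 members (56.4%) and GCGTG at 25 (64.1%), against 18.5% and 30.9% of the 27025 genes with a window. A gene with several starts counts if any window holds the motif, and by window the shares for ACGTG were 47.2% of 53 and 16.6% of 32851. Base composition was not matched, both motifs hold a CG pair, and ACGTG is also part of the E-box CACGTG, where it is read on both strands. Among tested members with a window, ACGTG was found at 5 of 7 called higher, 0 of 2 called lower and 15 of 26 not called. GCGTG was found at 5 of 7, 2 of 2 and 16 of 26. A match is a description of letters, not a binding site.

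The stretches below run 5′ to 3′ on the gene's strand and end at the base before the gene start, in lower case with each match in capitals. Hif1a, Slc2a6, Pdk3 and P4ha1 were called higher, Eno3 was called lower, and Ldha holds 5 matches to ACGTG yet was not called. They lie at chr12:73907617-73907866 (plus strand), chr2:27027999-27028248 (minus strand), chrX:93832151-93832400 (minus strand), chr10:59323046-59323295 (plus strand), chr11:70656926-70657175 (plus strand) and chr7:46845554-46845803 (plus strand) (RefSeq, GRCm38.p6).
Hif1a: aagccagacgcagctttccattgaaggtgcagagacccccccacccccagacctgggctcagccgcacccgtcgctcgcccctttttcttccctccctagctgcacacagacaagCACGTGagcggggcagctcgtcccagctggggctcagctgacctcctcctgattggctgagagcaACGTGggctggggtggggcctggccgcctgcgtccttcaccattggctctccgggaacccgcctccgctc
Slc2a6: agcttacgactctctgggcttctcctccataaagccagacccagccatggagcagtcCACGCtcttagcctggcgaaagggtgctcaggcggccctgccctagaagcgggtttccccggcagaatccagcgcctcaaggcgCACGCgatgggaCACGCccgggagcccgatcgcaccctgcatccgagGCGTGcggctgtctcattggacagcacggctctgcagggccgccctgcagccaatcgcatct
Pdk3: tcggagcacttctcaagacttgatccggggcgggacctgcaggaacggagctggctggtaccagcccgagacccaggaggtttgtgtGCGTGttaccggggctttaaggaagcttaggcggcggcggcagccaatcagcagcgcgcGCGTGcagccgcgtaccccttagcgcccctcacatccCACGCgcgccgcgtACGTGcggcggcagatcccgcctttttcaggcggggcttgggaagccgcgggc
P4ha1: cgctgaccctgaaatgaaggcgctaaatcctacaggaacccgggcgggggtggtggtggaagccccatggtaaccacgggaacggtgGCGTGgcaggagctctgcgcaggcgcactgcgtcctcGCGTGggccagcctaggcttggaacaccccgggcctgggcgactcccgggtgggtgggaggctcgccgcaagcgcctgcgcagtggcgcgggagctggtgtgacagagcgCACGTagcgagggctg
Eno3: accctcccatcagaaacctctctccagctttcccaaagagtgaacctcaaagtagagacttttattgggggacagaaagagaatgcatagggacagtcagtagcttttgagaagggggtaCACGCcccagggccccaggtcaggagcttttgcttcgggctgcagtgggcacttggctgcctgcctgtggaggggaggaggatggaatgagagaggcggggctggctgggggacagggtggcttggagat
Ldha: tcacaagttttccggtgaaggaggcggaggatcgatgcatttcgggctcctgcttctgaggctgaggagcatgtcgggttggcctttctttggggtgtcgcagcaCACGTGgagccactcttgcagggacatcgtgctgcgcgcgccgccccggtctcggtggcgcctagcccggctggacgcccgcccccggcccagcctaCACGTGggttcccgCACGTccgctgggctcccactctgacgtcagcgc
Hif1a holds a full E-box, which starts 135 bases before the gene start, and a further ACGTG starting 70 bases before it. Slc2a6 has 4 matches to GCGTG and 0 to ACGTG. Pdk3 has 3 matches to GCGTG and 1 to ACGTG, and P4ha1 has 2 and 1. The single match of Eno3 is to GCGTG, on the opposite strand. The Ldha stretch, the first of 2 listed starts, carries a pair of E-boxes.

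Glucose transporters went 3 ways. Slc2a6 encodes GLUT6, a transporter found on lysosomal membranes of macrophages (probe set 17383216, Entrez gene 227659), and read 8.62, 8.65 and 8.89 in spleen and 9.68, 10.09 and 10.05 in tumor. The groups stand well apart, with a rise of 1.22 ± 0.17 (2.33-fold, limma adjusted p = 0.00257). Slc2a3, the high-affinity neuronal and leukocyte transporter GLUT3, read 5.77, 5.52 and 5.99 in spleen and 4.92, 4.88 and 4.97 in tumor. All 3 tumor values lie below all spleen values, and Slc2a3 fell by 0.84 ± 0.16 (1.79-fold, limma adjusted p = 0.0129). It lost the call without spleen 1, tumor 1 or tumor 2 (limma adjusted p up to 0.0645). Slc2a1, the widespread transporter GLUT1 and a classical HIF target, overlapped between groups at 11.26 ± 0.25 in spleen and 11.44 ± 0.15 in tumor (SD, n = 3 each), and its change of 0.17 ± 0.18 was not called (limma adjusted p = 0.72). Its other probe set had a change of 0.17 too.

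Of 10 tested genes of the upper route 2 rose, Hk3 and Pfkp, and 1 fell, Pfkfb4. Hexokinases trap glucose by phosphorylation, and the 3 isoforms in the list had values above 0, while the related Hkdc1, outside it, stood at -0.19 ± 0.19 (limma adjusted p = 0.723). Hk3, the isoform of myeloid cells, read 8.31, 8.41 and 8.62 in spleen and 8.93, 9.32 and 9.26 in tumor. It rose by 0.73 ± 0.17 (1.66-fold, limma adjusted p = 0.0278), and lost the call without spleen 1, spleen 2, tumor 2 or tumor 3 (limma adjusted p up to 0.117). Hk2, the inducible isoform bound to mitochondria, read 8.69, 8.85 and 9.08 in spleen and 9.41, 9.35 and 9.62 in tumor. Its groups do not overlap, but its change of 0.59 ± 0.16 fell short of the call (limma adjusted p = 0.0581, or adjusted p = 0.00319 with the replicate block). Hk1, the housekeeping isoform, stood at 0.41 ± 0.32 (limma adjusted p = 0.608, or adjusted p = 0.0122 with the block), and its array 3 exceeded arrays 1 and 2 by 0.89 in spleen and 0.92 in tumor. The differences between the hexokinase changes were 0.14 to 0.32, with groups that overlapped in all 3 pairs.

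Phosphofructokinase commits sugar to glycolysis. The changes of its isoforms ran from -0.29 to 0.85, and the differences between them could not pass the threshold. Pfkp, the platelet-type isoform (probe set 17290324), read 9.83, 9.86 and 10.45 in spleen and 10.77, 10.77 and 11.15 in tumor. It rose by 0.85 ± 0.21 (1.81-fold, limma adjusted p = 0.0366). The lowest tumor value still exceeds the highest spleen value, that of array 3, and the call was lost without any 1 of the arrays except spleen 3 (limma adjusted p up to 0.148). Pfkl, the liver-type isoform, stood at 0.27 ± 0.18 (limma adjusted p = 0.523) and Pfkm, the muscle-type isoform and one of the dim members, at -0.29 ± 0.16 (limma adjusted p = 0.376). Within arrays the change of Pfkp exceeded that of Pfkl by 0.59 ± 0.13 and that of Pfkm by 1.14 ± 0.24, and the groups did not overlap in either.

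The PFKFB enzymes set the level of the small sugar phosphate that activates phosphofructokinase. Pfkfb4 read 7.55, 7.67 and 7.51 in spleen and 6.71, 7.21 and 6.87 in tumor. It fell by 0.65 ± 0.17 (1.57-fold, limma adjusted p = 0.0451), close to the threshold. This call was lost under quantile normalization (-0.60, limma adjusted p = 0.09) and cyclic loess (-0.54, limma adjusted p = 0.128), with a trended and robust prior (limma adjusted p = 0.0563), among the arrays numbered 1 and 2 (limma adjusted p = 0.132), and without any 1 of the arrays except tumor 2 (limma adjusted p up to 0.191). Pfkfb3, the isoform with the strongest kinase activity, stood at 0.55 ± 0.28 (limma adjusted p = 0.324, or adjusted p = 0.00308 with the block), at 0.54, 0.54 and 0.57 in the pairs numbered 1, 2 and 3. The change of Pfkfb3 exceeded that of Pfkfb4 by 1.20 ± 0.43, a difference that, like the other pairs, could not pass the threshold. Pfkfb2, a related enzyme outside the list, fell by 0.94 ± 0.23 (limma adjusted p = 0.0359).

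Further down, the enzymes of the shared route were not called, apart from Eno3. Aldoc, the brain-type aldolase that splits the sugar, was 9.50 ± 0.44 in spleen and 8.67 ± 0.37 in tumor (SD, n = 3 each). Its change of -0.82 ± 0.26 was not called (limma adjusted p = 0.0954, or adjusted p = 0.000526 with the block), though the pairs numbered 1 to 3 gave -0.78, -0.79 and -0.90. Tpi1, the triosephosphate isomerase, stood at 0.16 ± 0.15. Gapdh, the dehydrogenase often taken as a reference gene, stood at -0.15 ± 0.14 (limma adjusted p = 0.674), and its 3 probe sets at -0.05 to -0.15. Pgk1, a kinase that yields ATP, stood at 0.16 ± 0.13, Pgam1, the mutase, at -0.06 ± 0.15, and Pkm, pyruvate kinase, at -0.25 ± 0.14 (limma adjusted p between 0.389 and 0.925). Several of these genes have processed copies elsewhere in the genome, and their probe sets may read those too.

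Of the enolases, Eno3, the muscle-type isoform (probe set 17252183, Entrez gene 13808), read 8.44, 8.44 and 8.63 in spleen and 7.37, 7.81 and 7.47 in tumor. It fell by 0.95 ± 0.16 (1.94-fold, limma adjusted p = 0.00752), the one call among 6 tested genes of the lower route. Among the arrays numbered 1 and 2 alone it stood at -0.85 and missed the threshold (limma adjusted p = 0.0594). Eno2, the neuronal isoform, stood at 0.05 ± 0.24 (limma adjusted p = 0.965).

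At the exit of the pathway, 1 of 5 genes was called. Pdk3 encodes a kinase that shuts off pyruvate dehydrogenase and so keeps pyruvate out of mitochondria. It read 8.27, 8.37 and 8.58 in spleen and 9.55, 9.41 and 9.52 in tumor (probe set 17543196, Entrez gene 236900), with groups far apart. The rise was 1.09 ± 0.15 (2.12-fold, limma adjusted p = 0.00232). Pdk1, the related kinase best known as a HIF target, read 7.49, 7.76 and 8.15 in spleen and 7.30, 7.20 and 7.88 in tumor, and its change of -0.34 ± 0.24 was not called (limma adjusted p = 0.527). Within arrays the change of Pdk3 exceeded that of Pdk1 by 1.43 ± 0.22. Ldha, the lactate dehydrogenase subunit, stood at 0.26 ± 0.22 (limma adjusted p = 0.652), and the lactate carriers Slc16a1 and Slc16a3, or MCT1 and MCT4, at -0.22 ± 0.24 and -0.16 ± 0.14 (limma adjusted p = 0.756 and 0.669), all with overlapping groups.

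**Figure D2:**
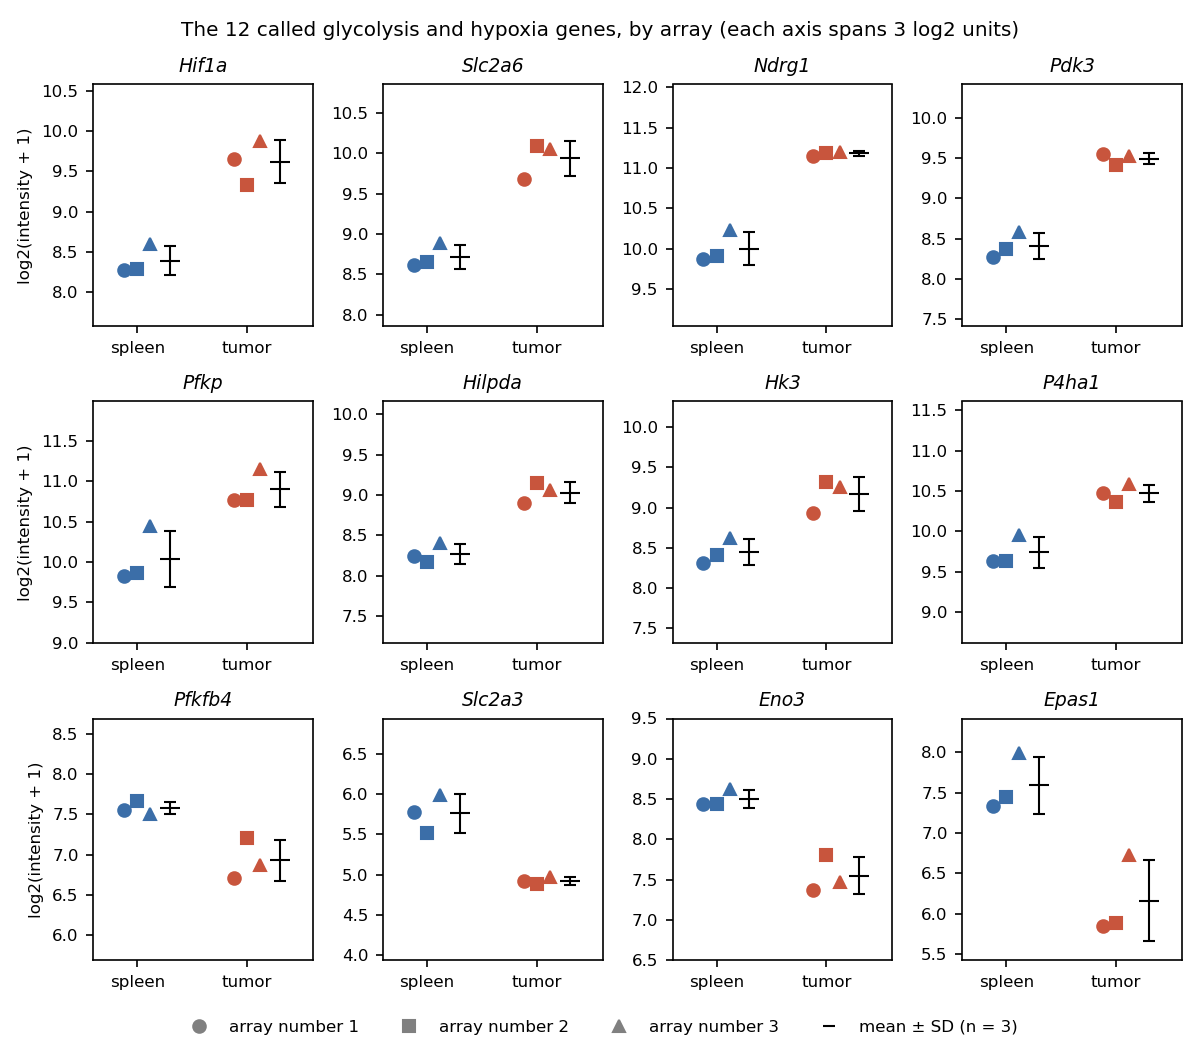
Level, log2(intensity + 1), of the 12 called members on each array (y axis, 3 log2 units in every panel), with spleen and tumor on the x axis, the marker shape giving the array number and bars the mean ± SD of 3 arrays. The 8 genes called higher come first, from Hif1a to P4ha1, then the 4 called lower, and in each panel the groups do not overlap.

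Hypoxia targets outside glycolysis held 3 of the 8 rises. Ndrg1, a stress-responsive gene (probe set 17317652, Entrez gene 17988), read 9.87, 9.91 and 10.23 in spleen and 11.15, 11.19 and 11.20 in tumor. The tumor arrays agree closely, and the rise was 1.18 ± 0.15 (2.27-fold, limma adjusted p = 0.00182). A dimmer probe set of Ndrg1 gave 0.68, and with the mean of both Ndrg1 stood at 0.93 and was not called (limma adjusted p = 0.204). Hilpda encodes a lipid droplet protein that inhibits fat breakdown, and read 8.24, 8.17 and 8.41 in spleen and 8.90, 9.15 and 9.06 in tumor. It rose by 0.76 ± 0.15 (1.70-fold, limma adjusted p = 0.0132), a call lost without spleen 1, spleen 2 or tumor 2 (limma adjusted p up to 0.0808).

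P4ha1, a catalytic subunit of collagen prolyl hydroxylase, read 9.63, 9.63 and 9.96 in spleen and 10.47, 10.36 and 10.59 in tumor. It rose by 0.73 ± 0.16 (1.66-fold, limma adjusted p = 0.0211), and lost the call without spleen 1, spleen 2 or tumor 1 (limma adjusted p up to 0.108). The related subunit P4ha2 stood at -0.13 ± 0.19 (limma adjusted p = 0.832), so that the change of P4ha1 exceeded it by 0.87 ± 0.32. Bnip3, which marks mitochondria for removal, stood at 0.48 ± 0.23 (limma adjusted p = 0.279, or adjusted p = 0.0186 with the block). Adm, the vasodilator adrenomedullin, stood at 0.41 ± 0.20 (limma adjusted p = 0.298, or adjusted p = 0.0133 with the block).

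The remaining targets had values at or below 0. Mif, a cytokine that holds back macrophage migration, stood at -0.41 ± 0.24 (limma adjusted p = 0.408, or adjusted p = 0.0177 with the block). Unlike most members, Mif was lower on arrays numbered 3, by 0.51 in spleen and by 0.62 in tumor. Ddit4, an inhibitor of mTOR signalling, stood at -0.29 ± 0.18 (limma adjusted p = 0.455). Car12, a membrane carbonic anhydrase near the dim end of the tested genes, had a change of 0.00 ± 0.40 (limma adjusted p = 0.998). Its reading depended on the array number instead, at 3.75 to 3.86 on arrays 1 and 2 of both groups and 4.92 and 4.99 on arrays 3.

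Most other members also read higher on the arrays numbered 3. Array medians of log2 intensity were 4.50 to 4.51 on the arrays numbered 1 and 2 and 4.73 and 4.76 on those numbered 3. The meaning of a number is not stated in the labels. Of the 38 members, 32 (84.2%) were higher on array 3 than on the mean of arrays 1 and 2 in both groups, as were 70.2% of all tested genes, with medians over the members of 0.35 in spleen and 0.25 in tumor. For 19 of the 38 this step was larger than the tumor change, which held for 62.1% of all tested genes. Among the arrays numbered 1 and 2 alone, 10 members were called higher (7.51% of all tested genes) and 4 lower (8.39%). Hk1, Hk2 and Pfkfb3 were then called higher and Aldoc and Vhl lower, while Hk3, Pfkfb4 and Eno3 were not called.

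**Figure D3:**
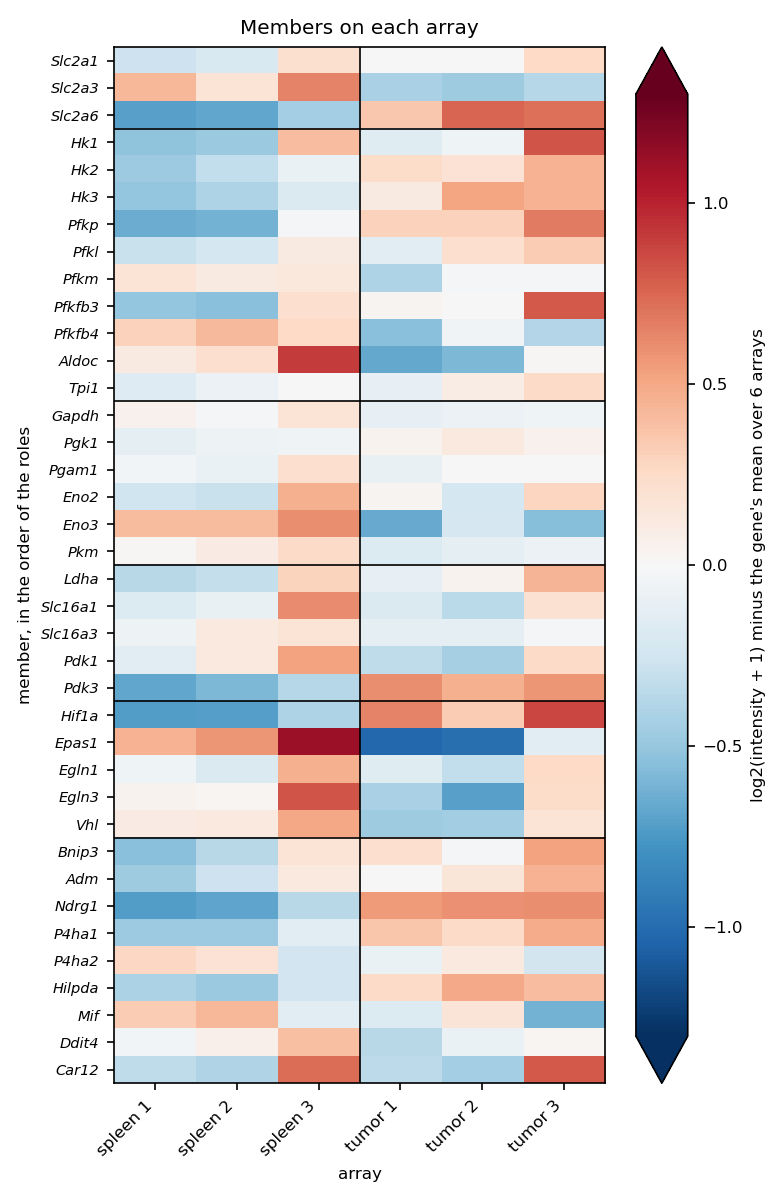
Level of each tested member on each array (columns) as its log2(intensity + 1) minus the gene's mean over 6 arrays, red above and blue below, with rows in the order of the roles and lines between them. The columns numbered 3 are redder than those numbered 1 and 2 for most rows, and Hif1a and Epas1 show opposite colours in tumor and spleen.

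The other genes of the pathways were read from lists chosen by function. Of 37 further hypoxia-inducible genes, 5 rose (13.5%, against 5.73% of all tested genes) and 6 fell (16.2%, against 4.85%), or 8 and 11 with the replicate block, with a median change of -0.06. The rises were led by Nos2, the inducible nitric oxide synthase (3.86 ± 0.14, limma adjusted p = 2.21e-06), Cited2, a feedback inhibitor of HIF (2.08 ± 0.19), and Pgf, placental growth factor (1.51 ± 0.17). The falls were led by Angptl4, a lipase inhibitor (-2.49 ± 0.14, limma adjusted p = 1.26e-05), Tfrc, the transferrin receptor (-1.68 ± 0.27), and Narf (-1.16 ± 0.29), and Narf lost its call without spleen 2, spleen 3, tumor 1 or tumor 2. Among 17 partners and regulators of HIF, 1 rose (5.88%, against 5.73% of all tested genes) and 0 fell (against 4.85%), with a median of -0.07. At an unadjusted limma p under 0.05, 4 lay above 0 and 1 below, against 1715 and 2269 of all 18458 tested genes. With the replicate block 5 of the 17 were called higher and 2 lower, against 11.7% and 17.3% of all tested genes. The rise was that of Stat3, a transcription factor of cytokine signalling (0.65 ± 0.16, limma adjusted p = 0.0359), which lost its call without any 1 of the arrays except spleen 3.

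Of 25 further glycolytic and gluconeogenic genes, 1 rose and 3 fell, where 5.73% and 4.85% of all tested genes did, with a median of -0.19. With the replicate block 2 were higher and 9 lower, where 11.7% and 17.3% of all tested genes were. Gpd2, the mitochondrial glycerol phosphate dehydrogenase, rose by 0.88 ± 0.15 (limma adjusted p = 0.00722). Pfkfb2 (-0.94 ± 0.23), the ADP-dependent glucokinase Adpgk (-0.76 ± 0.15) and the glucose phosphatase G6pc3 (-0.69 ± 0.16) fell. For pyruvate entry into mitochondria 0 of 11 genes rose and 1 fell, Pdk2 (-0.98 ± 0.17, limma adjusted p = 0.00874), a kinase of the same family as Pdk3, with 0 higher and 4 lower under the block. At an unadjusted limma p under 0.05, 0 of the 11 lay above 0 and 3 below, against 1715 and 2269 of all 18458 tested genes. In the pentose phosphate pathway, which makes NADPH and ribose, 1 of 9 rose, Rpe, from 7.98 in spleen to 8.98 in tumor (limma adjusted p = 0.0253), and 1 fell, Shpk (-0.79 ± 0.18), with a median of -0.38 and with 2 higher and 5 lower under the block. Of these called genes Gpd2 alone stayed called with each array left out. Pdk2 was lost without tumor 1 and Adpgk without spleen 2 or tumor 1, while Pfkfb2, G6pc3, Rpe and Shpk were each lost without any 1 of 4 arrays (limma adjusted p up to 0.128).

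Glycogen genes and the citrate cycle were read the same way. Of 12 glycogen genes none was called in limma, the smallest p belonging to the phosphorylase Pygl (-0.68 ± 0.22, limma adjusted p = 0.103) and the kinase subunit Phka2 (-0.51 ± 0.18, limma adjusted p = 0.131). At an unadjusted limma p under 0.05, 4 lay below 0 and 0 above, against 2269 and 1715 of all 18458 tested genes. With the replicate block 5 of the glycogen genes were lower. Of 17 citrate cycle genes 1 rose (5.88%, against 5.73% of all tested genes) and 2 fell (11.8%, against 4.85%), with a median of -0.24. With the replicate block 1 was higher and 6 lower. That block called 11.7% of all tested genes higher and 17.3% lower. The rise was that of Acod1, which diverts the cycle to itaconate in activated macrophages, by 4.87 ± 0.18 (29.3-fold, limma adjusted p = 2.21e-06). The isocitrate dehydrogenase genes Idh3g (-0.65 ± 0.16) and Idh2 (-0.61 ± 0.16) fell, and lost their calls without most single arrays (limma adjusted p up to 0.178 and 0.173). Gys1 and Gbe1 are counted in both the glycogen and the further hypoxia-inducible list.

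**Figure D4:**
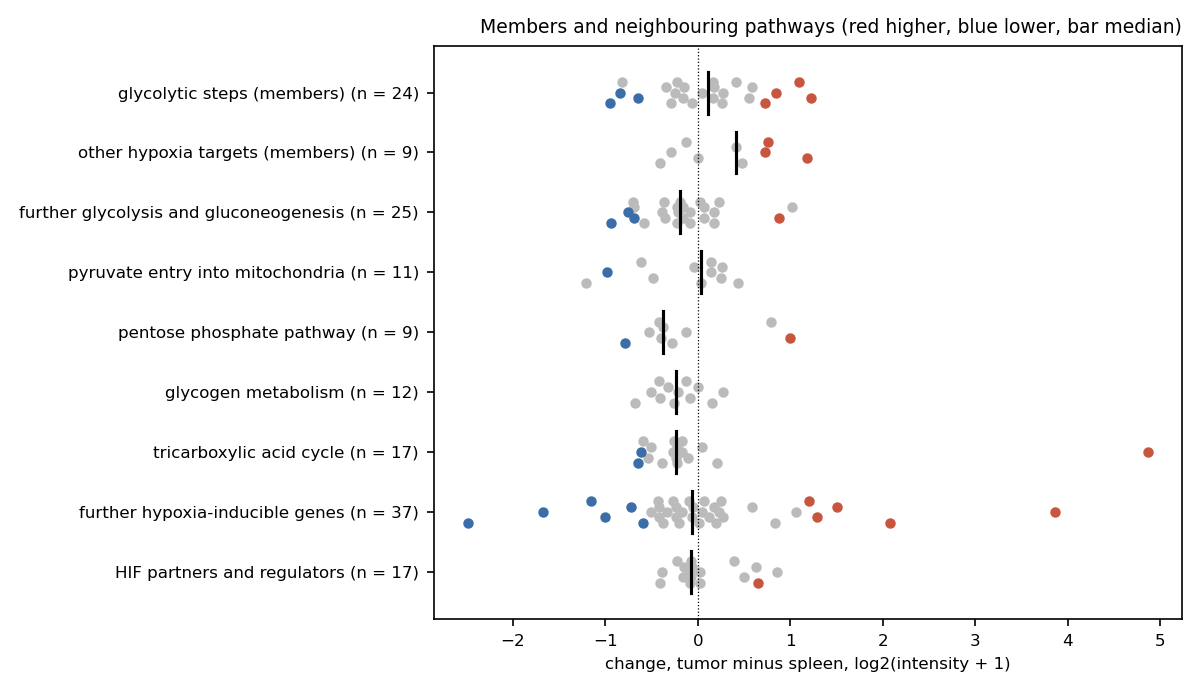
Change of each tested gene (x axis, tumor minus spleen, log2(intensity + 1)) in the 24 glycolytic steps, the 9 other hypoxia targets and the 7 further lists, 1 row per list with vertical offsets only to part the points. Red points are called higher, blue lower and grey not called, and the bar is the list's median, 0.11 and 0.41 for the members' rows. Acod1 and Nos2 lie farthest to the right.

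The sort markers and the markers of other cells were read beside these results. Itgam, the gene of CD11b, was 10.04 ± 0.15 in spleen and 9.19 ± 0.22 in tumor, and Itgax, the gene of CD11c, which the sort excluded, was 11.16 ± 0.12 and 10.31 ± 0.17 (SD, n = 3 each). Ly6c2, a gene of Ly6C, for which the cells were sorted as high, read 6.55, 6.41 and 7.48 in spleen and 7.93, 8.23 and 8.72 in tumor. It was called higher in tumor (1.48 ± 0.31, limma adjusted p = 0.0185), and lost the call without spleen 1 or spleen 2 (limma adjusted p up to 0.0711). Itgam was called lower (-0.85 ± 0.17, limma adjusted p = 0.015), and lost the call without spleen 2, tumor 1 or tumor 2 (limma adjusted p up to 0.0801). Over all tested genes 10.6% were called, and 5 of 12 marker lists held a called gene. These were Cd3g of T cells (-1.36), Ppbp of platelets (9.13 in spleen and 7.13 in tumor), Zbtb46 (0.89) and Itgax (-0.85) of dendritic cells, Kdr (2.88) and Vwf (-1.37) of endothelium, and, in the monocyte list of 8 measured genes, 3 higher, led by Fcgr1 (3.56), and 3 lower. The lower monocyte genes included Itgam and the chemokine receptor gene Ccr2 (-0.93 ± 0.15, limma adjusted p = 0.00515), and Ccr2 stayed called with each array left out. Zbtb46 lost its call without spleen 1, spleen 2 or tumor 2, and Itgax without tumor 1. The remaining genes of highest level or largest change in a list were not called, at -0.51 for Cd79b, -0.01 for Prf1, 0.29 for Gzmb, -0.37 for S100a8, -0.18 for Epor and 0.20 for Klf1. Likewise Col1a1 stood at -0.47, Epcam at 0.45, Cdh1 at -0.38, Mki67 at -0.17, Birc5 at -0.56 and Lyz2 at -0.11.

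Slc2a3 is also a transporter of neutrophils, T cells and platelets, whose summed markers were lower in tumor. The 9 neutrophil markers summed to an intensity of 1450 to 1540 on spleen arrays and 1220 to 1360 on tumor arrays, with 0 of 9 called and 0 dim on every array. The 4 measured platelet markers summed to 605 to 831 and 261 to 286, with 1 of 4 called. The 6 measured T cell markers summed to 215 to 259 and 137 to 194, with 1 called, and Il9, the cytokine of Th9 cells, was dim on every array. Dendritic cell markers summed to 2980 to 3350 and 2020 to 2250 over 6 genes, though Zbtb46 among them was called higher. A sum of intensities is weighted to its brightest gene, so a lower sum does not mean that every marker was lower. The brightest were S100a8 for neutrophils, Ppbp for platelets, Cd3g for T cells and Itgax for dendritic cells. The calls in the platelet and T cell lists were those of Ppbp and Cd3g, where 10.6% of all tested genes were called. The part of these cell types in the changes of the members was not tested.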

How the data were processed

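RNA of 3 spleen and 3 tumor samples was read on 1 array each, from RNA with an integrity number above 8.5 per the labels. The deposited table holds 1 linear intensity per probe set and array, made by the authors with RMA (background correction and summary over probes) per the submitters' processing notes, which state no version or settings. Array medians differ, so the arrays do not share 1 distribution. Of 41345 probe sets, 23521 carry 1 gene symbol, 1814 several and 16010 none in the platform annotation, and 23328 of the first kind have a gene identifier in the RefSeq table of GRCm38.p6. The brightest single-symbol probe set stood for each of 22180 genes, and 18458 lay above the 25th percentile of their array on at least 3 arrays.

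Log2(intensity + 1) was fitted with limma 3.58.1 in R 4.3.3 (lmFit, eBayes, group as the only term, two-sided, Benjamini-Hochberg over all tested genes), a script checked on simulated data. The pseudocount understates changes of dim genes. The members, roles, pathway and marker lists and tests were chosen with earlier results of these data known. Named genes are all members, up to 3 called genes per direction of each pathway list (with no call, the 2 with the lowest p), and the highest level and largest change of each marker list. Outside this rule, Hkdc1, Cul2, Eloc, Elob, Itgam, Ly6c2, Ccr2 and Il9 were also named. Dim means below the 25th percentile over tested genes.

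Across genes, deviations from the group mean had correlations of 0.36, 0.44 and 0.71 for same-numbered spleen and tumor arrays, all over 0.1, so the replicate number, whose meaning the labels do not give, was tried as a block. For arrays numbered 1 and 2 the crossed pairs gave 0.46 and 0.35. There were 18 alternatives in all.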

Additional observations from a re-analysis of the deposited data

How the results depend on the processing

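The 12 called members kept the direction of their change under all 18 alternatives, but not all kept the call. Hif1a and Ndrg1 lost it with the mean of probe sets, and Hk3, Pfkfb4 and Eno3 among the arrays numbered 1 and 2. At an adjusted p under 0.01, 7 of the 12 were no longer called. The median change of other hypoxia targets stayed above 0, from 0.28 to 0.57, in the alternatives run. The median of glycolytic steps ranged from 0.00 to 0.19 and kept no direction at its low end. The count over all tested genes, 1952, became 3506 with quantile normalization, 3289 with median centring, 3184 with cyclic loess, 5346 with the replicate block, 2936 among the arrays numbered 1 and 2, 961 at an adjusted p under 0.01, and 1011 to 1924 with 1 array left out (1147 without spleen 1, 1031 without spleen 2, 1011 without tumor 1). Members called higher and lower numbered 13 and 8 with the replicate block and 4 and 1 at an adjusted p under 0.01. With 1 array left out the members called higher ranged from 4 to 9 and those called lower from 1 to 5. The block ended no call of a member, and the cause of these shifts was not tested.

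Changes that were near 0 and not called turned sign. Pgam1 stood at 0.00 with cyclic loess and 0.01 among the arrays numbered 1 and 2, and Car12 at -0.02 with quantile normalization, -0.01 with median centring and -0.03 among the arrays numbered 1 and 2. With 1 array left out Pgam1 ranged from -0.12 to 0.03, Eno2 from -0.07 to 0.30, Slc16a1 from -0.38 to 0.03, Egln1 from -0.31 to 0.05 and Car12 from -0.39 to 0.37. Changes of members near background, such as Car12 and Pfkm, are compressed.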
